A study of Mus musculus with 12 samples.

Results

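The genes described here encode the machinery of autophagy, the pathway by which a cell encloses part of its own contents in a double membrane and delivers it to the lysosome. They were taken from a table of RNA-sequencing levels as every row whose name was a single Atg symbol with a number, together with 23 named genes of the same pathway. This gave 40 symbols, of which 36 had a row of their own with a mean of at least 1 FPKM over the 12 libraries. FPKM values divide the fragments of a gene by its transcript length and by the fragments mapped in that library, so levels of different genes can be set side by side per length. The 36 genes stood among 39248 rows in all, 14706 of which had a mean of at least 1 FPKM and were tested. Of the other 4 symbols, Atg9b lay below that level with a mean of 0.423 FPKM, and Map1lc3b, Gabarap and Epg5 had no row under their symbol alone and were not analysed here.

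The libraries came from 3T3-L1 cells, a mouse fibroblast-like line that turns into fat-storing adipocytes in culture. After differentiation, all cells were electroporated with siRNA at 0.75 nmol per batch of cells, on day 2. The control arm received a control siRNA (6 libraries) and the knockdown arm received 1 of 2 siRNAs against Zfp407, a zinc finger gene (3 libraries for each siRNA), and each library had its own electroporation. The columns of the knockdown arm are numbered 1 to 6 without the siRNA, so they were used as 1 arm of 6, and the siRNAs could not be compared. No untreated or non-electroporated cells were analysed here. All libraries share 1 cell line, so each p-value measures the spread between electroporations of that line. In the knockdown arm the difference between the siRNAs adds to that spread. The 6 libraries were treated as independent although only 2 siRNAs were used, so the p-values do not measure how other siRNAs against Zfp407 would vary.

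Autophagy begins when the ULK kinase complex is activated, which mTORC1 restrains when nutrients and insulin are plentiful. A lipid kinase complex around BECN1 then marks the growing membrane with phosphatidylinositol 3-phosphate (PI3P), proteins that bind this lipid are recruited, and 2 ubiquitin-like conjugation reactions attach proteins of the Atg8 family to the membrane. Receptors that bind both cargo and Atg8 proteins bring in aggregates or mitochondria. In fat cells the pathway is known for its part in adipocyte differentiation and for the removal of mitochondria when beige adipocytes whiten.

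Of the 36 genes, 13 fell in the Zfp407 siRNA libraries, 3 rose and 20 did not pass (limma, Benjamini-Hochberg adjusted p under 0.05 over the 14706 rows). The largest change was in Ulk2, a kinase that starts the pathway, and the other called members changed by at most 0.46 on the log2 scale. The 3 genes that rose, Atg12, Atg16l1 and Atg4d, all belong to the conjugation group, in which 4 other genes fell. The measured genes of the Atg8 family did not pass. The 13 genes that fell were 36.1% of the members, beside 24.8% of all tested rows called lower, and the 3 that rose were 8.33%, beside 11.6% called higher. In either direction 16 members were called (44.4%), beside 36.4% of the rows. Rows called lower were 68.1% of all called rows, a share that was 57.7% when each library was centred on its median and 60.0% after quantile normalization. With so broad a background, these shares describe the members and set them apart in no way that was tested.

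The median log2 fold change of the 36 members was −0.11, beside −0.05 over all tested rows, and 25 of them had a value below 0 (69.4%, beside 59.4% of all rows). Among called genes the median size of the change was 0.285 for members and 0.30 for all rows on the log2 scale. The arms did not overlap for 9 members (25%), of which 7 were lower and 2 higher in knockdown, beside 19.5% of all rows. Tested against a minimum fold of 1.2 (limma treat), only Ulk2 of the members was called (2.78%), beside 5.82% of all rows. In the authors' deposited table no member was significant, and 2 had an unadjusted p-value under 0.05, Ulk2 (p = 0.00537, q = 0.196) and Atg3 (p = 0.017, q = 0.41). That table called only 302 of its 39248 rows significant, so the absence of members among them does not set the members apart. The share of all its rows with such an unadjusted p-value was not counted, so the 2 members have no background to be set against.

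**Figure D1:**
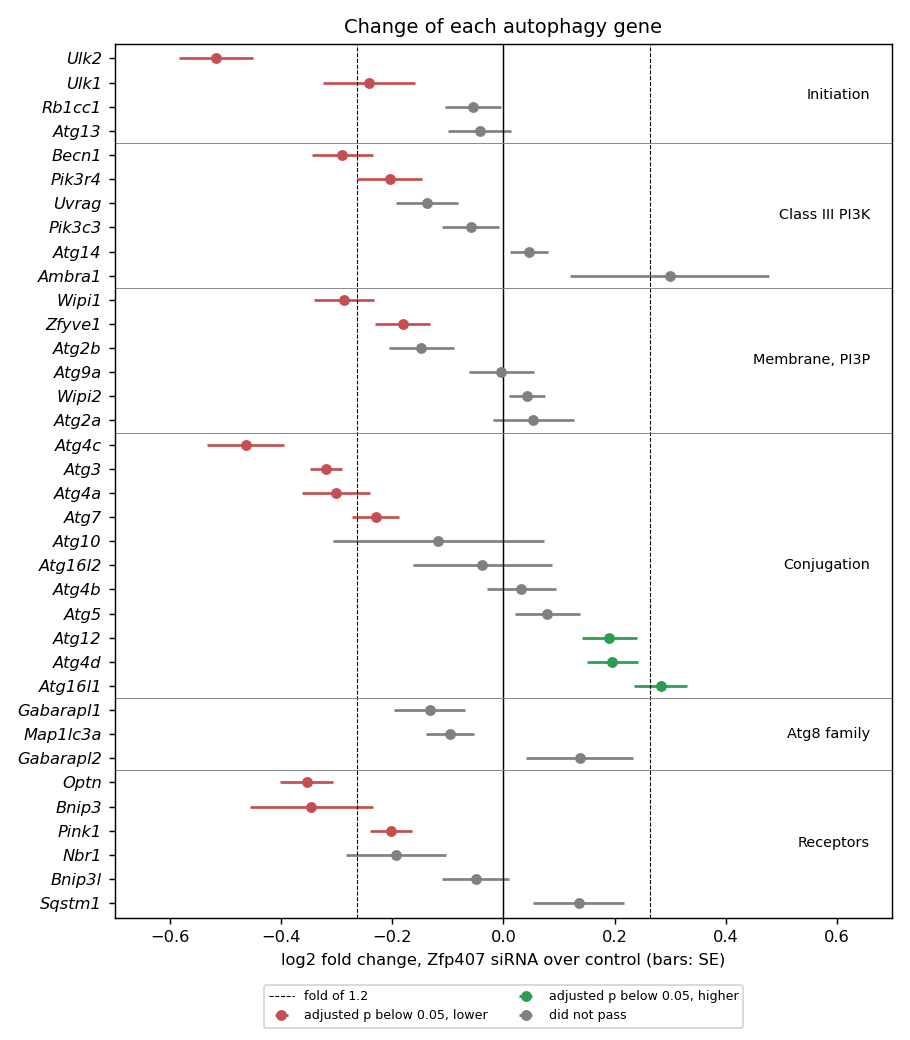
The log2 fold change (Zfp407 siRNA over control siRNA, on log2(FPKM + 1)) of each of the 36 genes, with its standard error as a bar, grouped by role; dashed lines mark a fold of 1.2. Ulk2 lies farthest to the left at −0.52, 10 genes lie beyond a dashed line, and the genes that rose are all in the conjugation group.

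The targeted gene Zfp407 ran from 2.70 to 3.16 FPKM in control and from 1.604 to 2.13 in knockdown libraries. Its mean was 36.9% lower, with a log2 fold change of −0.46 (SE 0.06, limma adjusted p = 8e-05). Adipocyte genes were abundant in both arms, with Adipoq, which encodes adiponectin, between 2518 and 3316 FPKM in control and between 2079 and 2747 in knockdown libraries. Of 10 adipocyte markers 5 fell and none rose, beside 24.8% and 11.6% of all rows, and their summed level ran from 16650 to 20480 FPKM in control and from 14800 to 19460 in knockdown. Of 9 tested preadipocyte markers 3 fell and none rose, against the same background, with summed levels (10 genes) of 3770 to 4118 and 2927 to 3667 FPKM. Of 5 listed macrophage markers 4 had a row of their own, Cd68 having none. These 4 summed to at most 0.229 FPKM in any library, Adgre1 being at 0 throughout. Endothelial markers summed to at most 2.32 FPKM, of which Vwf alone was tested and rose. In bulk RNA, fewer cells of a type and less RNA per cell cannot be told apart, and the part of these marker shifts in the results was not tested. Knockdown library 6 had 32.8% of its summed FPKM on mitochondrial rows, beside 19.4% to 26.3% in the other 11 libraries. Without that library, 12 members were called lower and 3 higher.

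A limit of these FPKM values applies to small changes. In low rows the value of 1 read could be read from the steps between libraries, and control and knockdown libraries did not share this value in 197 of 769 rows (25.6%; differences over 0.01 in log2 units), with a 90th percentile of 0.20. Within the arms, comparing odd with even libraries, it differed in 5.79% of 311 rows in control and 3.2% of 344 rows in knockdown. Changes of up to about 0.20 cannot be told apart from this difference between whole arms. That size is no upper bound, since rows above the 90th percentile differed by more. The difference was read in low rows only, and its size in the rows of the members was not tested. Of the 16 called members, Zfyve1, Atg12 and Atg4d changed by less than 0.2 in log2(FPKM + 1), and Pink1 (−0.20) and Pik3r4 (−0.21) by little more. Which genes lie beyond that size depends on the scale. With centred libraries both Pink1 and Pik3r4 were at −0.17 and Atg7 at −0.197, while Atg12 (0.224) and Atg4d (0.229) lay beyond it. After quantile normalization Atg7 was at −0.184 and Ulk1 at −0.198. With a pseudocount of 0.1 Atg4d was at 0.22. In addition, 10 of the 16 share their locus with other rows of the table, and how reads of overlapping rows were assigned was not tested. For Pik3r4, Optn and Bnip3 the other row was below 0.5 FPKM on average in both arms.

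The 36 genes spanned a wide range of levels. Bnip3 was the most abundant with a mean of 799 FPKM over the 12 libraries, followed by Sqstm1 at 488 and Bnip3l at 301, all of them cargo receptors. Gabarapl1 (105), Nbr1 (94.3), Gabarapl2 (83.4), Becn1 (81.5) and Map1lc3a (67.2) came next, and the library ranges of each neighbouring pair among these overlapped. At the low end stood Atg14 (5.05), Atg2b (5.02) and Atg16l2 (4.68 FPKM), whose ranges overlapped as well. The median of the members was 22.8 FPKM, beside 13.1 FPKM for all tested rows. Replicates varied by a median coefficient of variation of 6.46% in control and 8.53% in knockdown libraries, and the knockdown value was the higher for 24 members (66.7%, beside 62.4% of all rows).

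**Figure D2:**
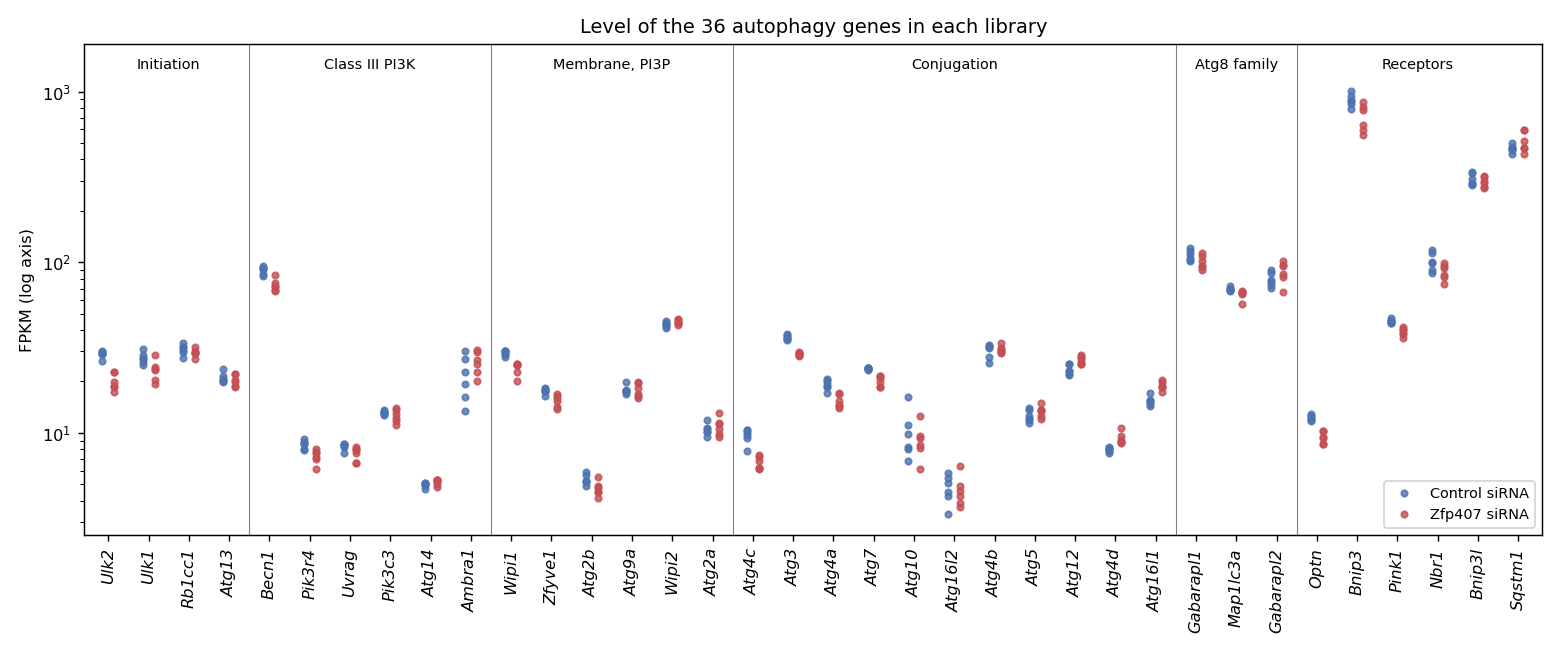
FPKM (log axis) of each of the 36 genes in each of the 12 libraries, 6 control siRNA (blue) and 6 Zfp407 siRNA (red), grouped by role. The receptors Bnip3, Sqstm1 and Bnip3l stand highest and the arms are fully apart for 9 genes, among them Ulk2, Atg3 and Optn.

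Of the 4 members that belong to the ULK initiation complex, 2 fell, Ulk2 and Ulk1, beside 24.8% of all rows called lower. Other measured genes of early steps are not members and are counted in a separate list below. Ulk2 (chr11:61775596-61855077, minus strand) ran from 26.2 to 30.3 FPKM with a median of 29.1 in control libraries and from 17.3 to 22.7 with a median of 19.3 in knockdown libraries. Every knockdown library lay below every control library, libraries 1 and 2 being the highest of the knockdown arm at 22.7 and library 6 the lowest. Its mean moved from 28.9 ± 1.40 to 19.97 ± 2.24 FPKM (SD, n = 6 each), a fall of 30.9%. On the log2 scale it changed by −0.52 (SE 0.07, limma adjusted p = 9.39e-05), with an adjusted p of 0.024 against a fold of 1.2. The exact two-sided permutation p was 0.00216, the smallest that 924 divisions of 12 libraries allow. The position given for each member is that of its row, which for some genes also spans neighbouring genes.

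Ulk1 (chr5:110784483-110810172), the related kinase that mTORC1 and AMPK phosphorylate, moved from 27.4 ± 2.07 to 23.2 ± 3.21 FPKM. Its change on the log2 scale was −0.24 (SE 0.08, limma adjusted p = 0.0383), and knockdown library 2, at 28.4 FPKM, lay inside the control range. The call for Ulk1 held in 7 of 18 alternative settings, with adjusted p-values from 0.00642 to 0.122, and was lost with no filter on low values, under both scalings, and on leaving out control library 1, 2, 3 or 4 or knockdown library 3, 4, 5 or 6. The scaffold genes of the complex did not pass. Rb1cc1, which encodes FIP200, was at 30.7 ± 2.14 and 29.5 ± 1.54 FPKM (log2 fold change −0.06, limma adjusted p = 0.429). Atg13, which links FIP200 to the kinases, was at 20.98 ± 1.44 and 20.3 ± 1.55 FPKM (−0.04, limma adjusted p = 0.584), with a value of 0.003 after quantile normalization. Set against the scaffold within libraries, Ulk2 was 0.865 to 0.979 times the level of Rb1cc1 in control and 0.586 to 0.841 times in knockdown libraries, a ratio chosen after the values were seen and not tested.

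Of the 6 members in the group of the class III PI3-kinase complex, which makes PI3P, 2 fell and none rose, beside 24.8% and 11.6% of all rows. Becn1 (chr11:101260567-101302286), the scaffold of the complex, moved from 89.7 ± 4.45 to 73.3 ± 5.95 FPKM, with a log2 fold change of −0.29 (SE 0.05, limma adjusted p = 0.00142). The knockdown libraries lay below the lowest control value of 83.4 FPKM in 5 of 6 cases, the highest being at 84.0. The Becn1 row shares its locus with 4 others, of which Ccdc56, the only abundant one, was at 85.4 ± 6.35 and 83.4 ± 6.20 FPKM (limma adjusted p = 0.697). Pik3r4 (chr9:105642995-105687655), the regulatory subunit VPS15, moved from 8.53 ± 0.474 to 7.29 ± 0.677 FPKM, with a log2 fold change of −0.21 (SE 0.06, limma adjusted p = 0.0152).

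The catalytic subunit Pik3c3 was at 13.1 FPKM in control and 12.6 in knockdown libraries (log2 fold change −0.06, limma adjusted p = 0.392) and did not pass. Atg14, which directs the complex to sites of autophagosome formation, was at 4.95 ± 0.135 and 5.14 ± 0.184 FPKM (0.05, limma adjusted p = 0.306). Uvrag, its counterpart in the endosomal form of the complex, was at 8.34 ± 0.380 and 7.51 ± 0.701 FPKM (−0.14, limma adjusted p = 0.0711). Uvrag is carried by 2 rows. Their sum gave a log2 fold change of −0.15 with an adjusted p of 0.0398, past the threshold, as did leaving out control library 3 (0.0487) or knockdown library 4 (0.0381). Ambra1, which binds BECN1, was the most variable of the group: its control libraries ran from 13.3 to 30.0 FPKM, a coefficient of variation of 29.9%, and its difference of 0.30 on the log2 scale did not pass (SE 0.18, limma adjusted p = 0.214).

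Among the members that supply membrane or bind PI3P, 2 of 6 fell, Wipi1 and Zfyve1, beside 24.8% of all rows called lower. Wipi1 (chr11:109425946-109611967), a PI3P-binding propeller protein, moved from 29.3 ± 1.01 to 23.9 ± 2.06 FPKM, with a log2 fold change of −0.29 (SE 0.05, limma adjusted p = 0.00153). All 6 knockdown libraries (20.1 to 25.3 FPKM) lay below all 6 control libraries (27.6 to 30.2 FPKM). The Wipi1 row spans a locus with 4 other rows, of which the row naming Amz2 and Arsg also fell (−0.19, limma adjusted p = 0.0328). The GENCODE annotation places Wipi1 itself at chr11:109573331-109611967. Zfyve1 (chr12:83546561-83597220), which encodes the omegasome protein DFCP1, moved from 17.6 ± 0.593 to 15.4 ± 1.24 FPKM (−0.18, SE 0.05, limma adjusted p = 0.013). One knockdown library, at 16.9 FPKM, lay inside the control range, which began at 16.5.

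Wipi2, the family member that recruits ATG16L1, was at 43.3 FPKM in control and 44.6 in knockdown libraries and did not pass (0.04, limma adjusted p = 0.35), although it did after quantile normalization (0.10, adjusted p = 0.0177). The lipid transfer genes Atg2a and Atg2b did not pass either. Atg2a was at 10.4 and 10.9 FPKM (0.05, limma adjusted p = 0.59), and Atg2b was at 5.33 and 4.72 FPKM (−0.15, limma adjusted p = 0.0671). Without knockdown library 4, Atg2b passed (−0.19, limma adjusted p = 0.015). Atg9a, the multispanning protein of vesicles that seed the autophagosome, was at 17.9 and 17.8 FPKM with a log2 fold change of −0.004 (limma adjusted p = 0.961) that took either sign with the scaling.

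The conjugation group was the one in which genes moved both ways: of 11 genes, 4 fell, 3 rose and 4 did not pass. Of all tested rows, 24.8% were called lower and 11.6% higher, and the group was not tested against them. Of the 3 that rose, Atg12 and Atg4d changed by less than 0.2, the 90th percentile of the difference between whole arms described above. The genes that fell encode the E1-like and E2-like enzymes of Atg8 lipidation, Atg7 and Atg3, and the Atg8 proteases Atg4a and Atg4c. Atg3 (chr16:45139573-45188538), the E2-like enzyme that hands Atg8 proteins to phosphatidylethanolamine, ran from 35.1 to 37.7 FPKM with a median of 36.3 in control and from 28.3 to 29.8 with a median of 28.8 in knockdown libraries. The arms were far apart and narrow, with no library of either near the other. The mean moved from 36.4 ± 1.03 to 28.95 ± 0.619 FPKM, a fall of 20.4%, with a log2 fold change of −0.32 (SE 0.03, limma adjusted p = 6.62e-06, exact permutation p = 0.00216). Against a minimum fold of 1.2 the adjusted p was 0.356. The other row at this locus, Slc35a5, was at 12.8 ± 0.879 and 12.4 ± 3.31 FPKM (limma adjusted p = 0.705). The GENCODE annotation places Atg3 itself at chr16:45158785-45188538.

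Atg4c (chr4:99193865-99259787), 1 of 4 cysteine proteases that trim Atg8 proteins before and after lipidation, ran from 7.80 to 10.4 FPKM with a median of 9.86 in control and from 6.15 to 7.42 with a median of 6.53 in knockdown libraries. The arms did not overlap, and control library 2 was the lowest of its arm. Its fall of 30.5%, with a log2 fold change of −0.46 (SE 0.07, limma adjusted p = 0.00029), was the second largest of the members, at an adjusted p of 0.0936 against a fold of 1.2. Atg4a (chrX:140956870-141164270) ran from 17.2 to 20.7 FPKM with a median of 19.1 in control and from 14.0 to 17.2 with a median of 14.97 in knockdown libraries. The arms met at a single point, where knockdown library 6 (17.21) stood just above control library 4 (17.19). Its change on the log2 scale was −0.30 (SE 0.06) with a limma adjusted p of 0.00235 and an exact permutation p of 0.00433. Atg7 (chr6:114643097-114969994), the E1-like enzyme that activates both ubiquitin-like proteins, moved from 23.8 ± 0.321 to 20.1 ± 1.39 FPKM with no overlap (−0.23, SE 0.04, limma adjusted p = 0.00122). The GENCODE annotation places Atg7 itself at chr6:114643097-114860614. The other row at that locus, Vgll4, was at 86.1 ± 2.68 FPKM in control and 88.6 ± 7.31 in knockdown libraries (limma adjusted p = 0.627).

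The 3 genes that rose were Atg16l1, Atg4d and Atg12. Atg16l1 (chr1:87755870-87792428), which places the ATG12–ATG5 conjugate at the membrane, moved from 15.4 ± 0.941 to 18.9 ± 1.10 FPKM without overlap of the arms (0.28, SE 0.05, limma adjusted p = 0.000676). Rows of the small RNA Scarna6 share its locus: one moved from 1.35 ± 0.622 to 1.95 ± 1.05 FPKM and did not pass (limma adjusted p = 0.429), and the other, too low to test, from 0.0382 ± 0.0593 to 1.72 ± 1.38 FPKM. Their part in the Atg16l1 value was not tested. Atg12 (chr18:46732417-46806290), the ubiquitin-like protein joined to ATG5, moved from 23.4 ± 1.59 to 26.8 ± 1.43 FPKM (0.19, SE 0.05, limma adjusted p = 0.00996), with 4 of 6 knockdown libraries above every control library. The neighbouring Ap3s1, far more abundant and sharing that locus, went the other way, from 275 ± 15.98 to 232 ± 15.3 FPKM (−0.25, limma adjusted p = 0.00339). Atg4d (chr9:21265299-21287971), another of the proteases, moved from 7.96 ± 0.197 to 9.29 ± 0.766 FPKM with no overlap (0.20, SE 0.05, limma adjusted p = 0.00603).

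The remaining conjugation genes did not pass. Atg5, the partner of ATG12, was at 12.6 ± 0.998 and 13.3 ± 0.973 FPKM (0.08, limma adjusted p = 0.315), and the protease gene Atg4b, at 30.2 ± 2.92 and 30.8 ± 1.55 FPKM, was the most abundant of the Atg4 genes (0.03, limma adjusted p = 0.722). Atg10, the E2-like enzyme for ATG12, was at 10.1 ± 3.39 and 9.03 ± 2.13 FPKM (limma adjusted p = 0.662), with a coefficient of variation of 33.8% in control libraries. Atg16l2, a relative of Atg16l1, was at 4.75 and 4.61 FPKM (limma adjusted p = 0.834). Set against each other within libraries, genes that moved in opposite directions separated the arms. Atg3 was 1.47 to 1.63 times the level of Atg12 in control and 0.987 to 1.18 times in knockdown libraries. Atg4c was 0.984 to 1.36 times the level of Atg4d in control and 0.637 to 0.849 times in knockdown. These pairs were chosen after their values were seen, so the separation followed from that choice, and no test was made of them.

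**Figure D3:**
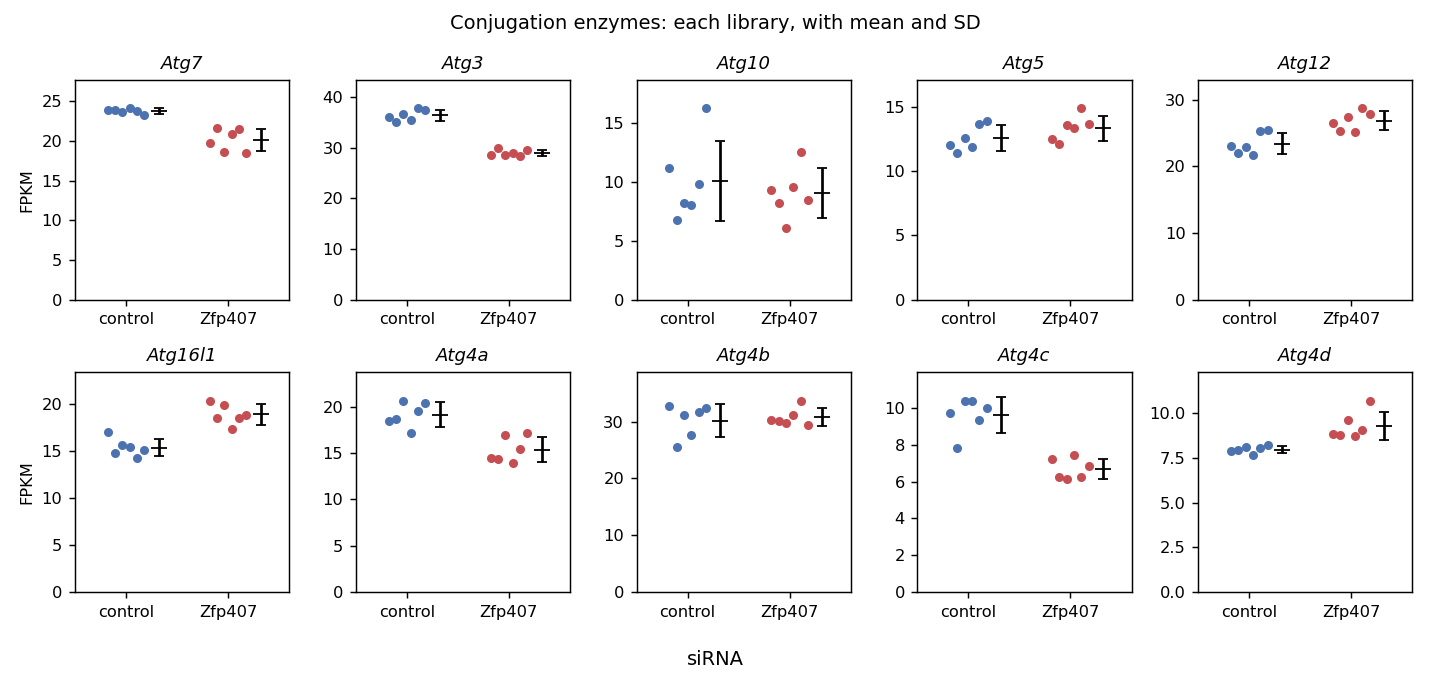
FPKM of 10 conjugation genes in each library (points; left, control siRNA; right, Zfp407 siRNA) with the mean and SD of each arm of 6. Atg7, Atg3, Atg4a and Atg4c are lower in the knockdown arm and Atg12, Atg16l1 and Atg4d higher, while Atg10 and Atg5 overlap widely.

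To show what lies upstream of these genes, the 250 bases before each RefSeq gene start (some genes have several) were searched for a pair of motifs known in the control of autophagy genes. These were CACGTG, the E-box core read by TFEB and related factors, which is the same on both strands, and TGTTTAC on either strand, a sequence bound by forkhead factors such as FOXO1. Of the 36 genes, 29 matched the RefSeq promoter table (GRCm38.p6). CACGTG was found in 4 of them, Atg3, Atg5, Atg7 and Bnip3 (13.8%), beside 6.86% of the 27025 genes in the table. For Atg7 the RefSeq start lies 27999 bases inside the gene as GENCODE places it, so its window is not upstream of the whole gene. Of the 25 members with a RefSeq start within 1000 bases of the GENCODE start, 3 held CACGTG (12%). That limit on distance was not applied to the 27025 genes, so this share has no like background. TGTTTAC was found in none of the 29, beside 3.54% of all genes, so the motifs overlapped in no member. Atg3 had CACGTG at 94 and 71 bases before its RefSeq start, Atg5 at 14 and Bnip3 at 108 bases, and Atg7 had it at 132 bases before the internal start. Atg3 and Bnip3 are printed as genes that fell and Atg5 as one that did not pass, without the bases that lie in annotated exons, 5′ to 3′ on the strand of the gene and with CACGTG in capitals. They are Atg3 at chr16:45158707-45158784 (plus strand), Bnip3 at chr7:138909520-138909756 (minus strand) and Atg5 at chr10:44268089-44268338 (plus strand).
Atg3: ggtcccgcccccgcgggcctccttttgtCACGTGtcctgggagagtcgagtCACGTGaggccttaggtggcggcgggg
Bnip3: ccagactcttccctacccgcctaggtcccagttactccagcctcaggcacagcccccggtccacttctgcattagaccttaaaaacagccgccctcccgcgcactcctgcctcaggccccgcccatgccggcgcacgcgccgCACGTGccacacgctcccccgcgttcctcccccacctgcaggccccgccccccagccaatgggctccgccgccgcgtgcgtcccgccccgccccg
Atg5: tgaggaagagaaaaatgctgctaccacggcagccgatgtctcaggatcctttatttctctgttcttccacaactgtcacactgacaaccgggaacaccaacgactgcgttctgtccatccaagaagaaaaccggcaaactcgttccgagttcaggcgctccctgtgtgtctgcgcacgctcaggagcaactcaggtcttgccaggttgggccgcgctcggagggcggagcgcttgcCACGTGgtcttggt
A match is a run of letters only, and binding was not measured in this series.

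None of the 3 measured genes of the Atg8 family, whose proteins coat the autophagosome membrane, passed the test. Gabarapl1 (chr6:129532999-129549639) ran from 101 to 120.4 FPKM with a median of 109 in control and from 89.4 to 113 with a median of 98.8 in knockdown libraries. Its arms overlapped, with 3 of 6 knockdown libraries inside the control range, and the difference on the log2 scale was −0.13 (limma adjusted p = 0.126). Map1lc3a (chr2:155276297-155278073) ran from 67.5 to 72.7 FPKM with a median of 69.1 in control and from 57.2 to 67.8 with a median of 66.2 in knockdown libraries. Here 5 of 6 knockdown libraries lay below every control library, and library 6 lay far below the rest, but the change was small (−0.10, SE 0.04, limma adjusted p = 0.10, exact permutation p = 0.00433). Gabarapl2 (chr8:111940681-111955537) ran from 70.1 to 89.5 FPKM with a median of 77.4 in control and from 67.0 to 101 with a median of 89.8 in knockdown libraries. It had both the lowest and the highest value in the knockdown arm and did not pass (0.14, limma adjusted p = 0.294).

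Among the members that are cargo receptors or mitophagy genes, 3 of 6 fell (Optn, Pink1 and Bnip3) and none rose, beside 24.8% of all rows called lower. Optn (chr2:5020354-5064057), the ubiquitin-binding receptor optineurin, ran from 11.7 to 12.9 FPKM with a median of 12.2 in control and from 8.57 to 10.3 with a median of 9.39 in knockdown libraries. The arms did not overlap. Its mean moved from 12.3 ± 0.439 to 9.40 ± 0.743 FPKM, a fall of 23.4%, with a log2 fold change of −0.35 (SE 0.05, limma adjusted p = 0.000145, exact permutation p = 0.00216) and an adjusted p of 0.365 against a fold of 1.2. Pink1 (chr4:138312856-138327216), the kinase that accumulates on damaged mitochondria, moved from 45.1 ± 1.06 to 39.1 ± 2.10 FPKM with no overlap (−0.20, SE 0.04, limma adjusted p = 0.00146).

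Bnip3 (chr7:138885126-138909519), a mitochondrial receptor induced by hypoxia, ran from 785 to 1004 FPKM with a median of 886 in control and from 559 to 869 with a median of 708 in knockdown libraries. Knockdown libraries 1 to 3 were the lowest, at 597, 559 and 639 FPKM, and 4 to 6 were at 808, 777 and 869, so that 2 of 6 lay inside the control range. Its mean moved from 891 ± 75.1 to 708 ± 127 FPKM, with a log2 fold change of −0.35 (SE 0.11, limma adjusted p = 0.0279, exact permutation p = 0.0152). This call held in 12 of 18 alternative settings, with adjusted p-values from 0.000851 to 0.0616. It was lost on leaving out control library 1, 3 or 6 or knockdown library 1, 2 or 3. The related receptor Bnip3l, or NIX, was at 307 and 296 FPKM and did not pass (−0.05, limma adjusted p = 0.548).

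Sqstm1 and Nbr1, receptors of ubiquitinated aggregates, did not pass. Sqstm1, which encodes p62, was at 464 ± 22.7 FPKM in control and 512 ± 70.4 in knockdown libraries (0.14, limma adjusted p = 0.223), with knockdown libraries 4 and 5 highest at 596 and 597. Nbr1, which binds ubiquitin and Atg8 proteins as p62 does, was at 101 FPKM in control and 87.9 in knockdown libraries (−0.19, limma adjusted p = 0.113).

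**Figure D4:**
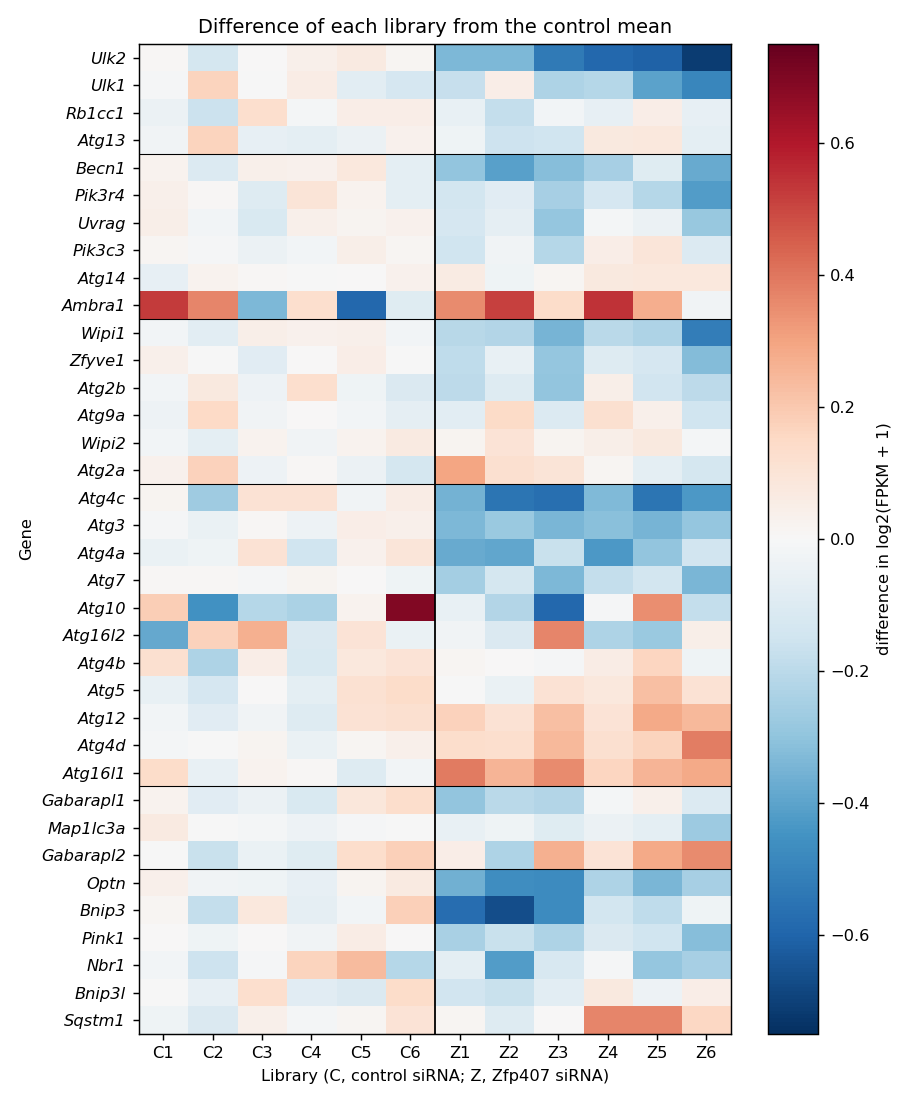
Difference of each library (columns; C1 to C6 control siRNA, Z1 to Z6 Zfp407 siRNA) from the control mean in log2(FPKM + 1) for each of the 36 genes (rows, by role). Ulk2, Atg4c, Atg3 and Optn are below the control mean in all 6 knockdown libraries, and Ambra1 and Atg10 vary among the control libraries themselves.

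Within libraries, the median difference of the members from the control mean was below 0 in all 6 knockdown libraries. It was −0.16 in library 3, −0.14 in library 6, −0.10 in libraries 1 and 2, −0.06 in library 5 and −0.01 in library 4, on the log2 scale. Control libraries lay between −0.04 and 0.03. The same median over all tested rows was between −0.08 and −0.01 in knockdown libraries. The members' median was below that of all rows in each of the 6 knockdown libraries, by 0.004 in library 4 up to 0.087 in library 3, a difference that was not tested.

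Other genes of the pathway were counted from 3 lists with 57 genes, of which 53 were tested. Of these, 15 fell, 6 rose and 32 did not pass, which is near the background of 24.8% of all rows called lower and 11.6% called higher, and the median over the lists was −0.04 on the log2 scale. Among 20 genes of early steps 6 fell and 1 rose, among 17 further receptors 5 fell and 3 rose, and among 16 genes of fusion with the lysosome and of regulation 4 fell and 2 rose. The 2 largest changes were both falls. Nipsnap1, a mitochondrial matrix protein that can act as a mitophagy signal on damaged mitochondria, moved from 7.19 ± 0.464 to 4.50 ± 0.739 FPKM, with a log2 fold change of −0.58 (SE 0.08, limma adjusted p = 0.000189). Trp53inp2, which encodes DOR, a nuclear protein that moves to autophagosomes and binds Atg8 proteins, moved from 66.5 ± 1.71 to 48.9 ± 5.02 FPKM (−0.44, SE 0.06, limma adjusted p = 0.000134). Against a fold of 1.2 the adjusted p was 0.0217 for Nipsnap1 and 0.0788 for Trp53inp2.

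**Figure D5:**
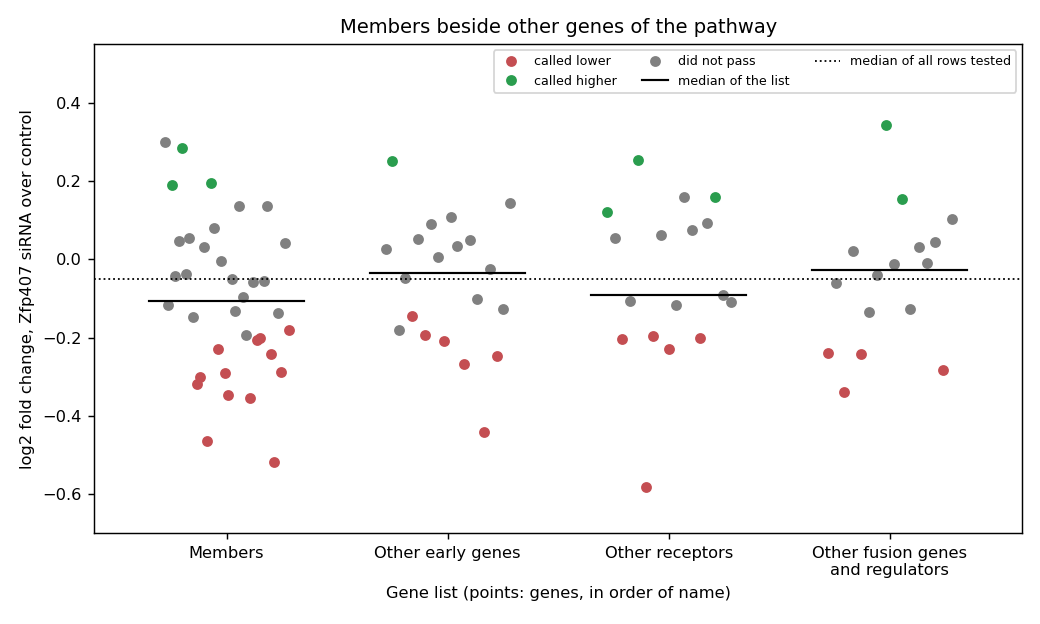
The log2 fold change (Zfp407 siRNA over control siRNA) of the 36 members and of the 53 other tested genes of the pathway in 3 lists, coloured by whether they were called lower, higher or did not pass; bars mark the median of each list and the dotted line that of all tested rows. The medians of the 4 lists lie close together, between −0.11 and −0.03, and Nipsnap1 is the lowest point at −0.58.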

How the data were processed

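RNA sequencing was measured in 12 libraries, 6 of each arm. The authors deposited 1 table with an FPKM value per row and library. It also carries, per the file headers, their own comparison of the arms, as a log2 fold change (taken as a score), a p-value and a q-value. The submitters' processing notes name Cufflinks 2.0.2, SAMtools 0.1.18.0, TopHat2 2.0.5 and Bowtie2 2.0.0.7. A genome build is not given in the sources used. Of rows of coding genes, 99.6% overlapped the same gene in GENCODE M21 (GRCm38) and 62.7% had its start or end to within 1 base. Positions are given on that build, counted from 1. Those of members cover the locus of the row, which can extend beyond the gene.

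Of the 39248 rows, 3036 had no name and 629 named several genes. Those with a mean of at least 1 FPKM (14706) entered limma 3.58.1 (R 4.3.3; eBayes, intensity trend) as log2(FPKM + 1). Tests were two-sided, p-values were adjusted by Benjamini-Hochberg over these rows, and 0.05 was the threshold. Fold changes are on that scale and understate changes of low genes. The fit was also run on simulated independent log2 values with some rows changed. That simulation held no difference between whole arms and none between siRNAs, so it could not test those limits. A gene with several rows was read from that with the highest mean. Single genes also had an exact two-sided permutation test of FPKM. Alternatives were another pseudocount (0.1), 2 other filters, 2 scalings, a minimum fold of 1.2 (limma treat), summed rows and leaving out each library. No pair of libraries was identical, the highest correlation within an arm being 0.981. Absolute depth is unknown. By the steps between low values, within a tolerance of 2% and leaving out differences of 0.5 or more, depths lay between 0.88 and 1.15 of control library 1.

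The members and lists were chosen with earlier results of these data known. Every member was named. Library ranges with medians were given for members called with a log2 change of at least 0.3 in size and for the Atg8 family. In the results above, other genes of the pathway were named when called with one of at least 0.4. The genes named under other observations fell short of that size and were chosen after their values were seen.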

Additional observations from a re-analysis of the deposited data

Results flagged for a closer look

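In 4 of the 72 sets of 6 libraries examined (each of the 36 genes in each arm), 1 library stood apart by a gap larger, as a share of the whole range, than the 95% critical value of Dixon's test for 6 samples. Chance alone gives about 1 in 20 such sets. Ulk2 in control library 2 was at 26.2 FPKM, beside 28.95 to 30.3 in the other control libraries (gap 0.664 of the range), and still lay above every knockdown library. Map1lc3a stood apart in both arms: control library 1 was at 72.7 FPKM, beside 67.5 to 69.3 (0.656), and knockdown library 6 was at 57.2 FPKM, beside 65.0 to 67.8 (0.738). The latter is the library with the highest mitochondrial share, and whether that bears on the value was not tested. Atg9a in control library 2 was at 19.9 FPKM, beside 16.98 to 17.9 (0.691).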

How the results depend on the processing

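Of the 16 calls, 14 (11 lower, 3 higher) held in all 18 alternatives other than the minimum fold, and Ulk1 and Bnip3 were the exceptions. Members called lower numbered 11 to 14 and higher 3 on leaving out 1 library at a time. Called lower and higher were 13 and 3 with a pseudocount of 0.1 and with a filter at 5 FPKM (35 members tested), 12 and 3 with no filter and with centred libraries, 12 and 4 after quantile normalization, and 14 and 3 with rows summed. Against a minimum fold of 1.2 the counts were 1 lower and 0 higher (limma; 19 members had an unadjusted p under 0.05 in the test without a minimum fold), and 856 of all rows. Among members that did not pass, the log2 fold change turned sign for Atg9a (0.029 with centred libraries, 0.037 after quantile normalization, −0.034 to 0.026 leaving out 1 library) and Atg13 (0.003 after quantile normalization). It also did so on leaving out 1 library for Atg4b (−0.014 to 0.055), Atg10 (−0.21 to 0.021) and Atg16l2 (−0.12 to 0.015). The cause was not tested. No paired analysis was possible because the knockdown columns do not carry the sample numbers that the labels give within each siRNA, so the fit with a replicate block was not run. FPKM without read totals gives no counting error, and small changes cannot be told apart from the difference in the value of 1 read between the arms.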

Other observations

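Several further genes of the pathway were chosen after their values were seen. Tfeb, a master regulator of lysosome and autophagy genes, was higher in knockdown libraries, at 14.1 ± 1.31 FPKM beside 11.02 ± 1.75 in control (SD, n = 6 each; log2 fold change 0.34, limma adjusted p = 0.0158). Foxo1, a forkhead factor that insulin signalling keeps out of the nucleus, was lower, at 9.22 ± 0.933 FPKM beside 11.04 ± 0.579 (−0.24, limma adjusted p = 0.00799). From the same list, neither Tfe3 (−0.04, limma adjusted p = 0.72) nor Foxo3 (−0.06, limma adjusted p = 0.525) passed. Ncoa4, the receptor that takes ferritin to the lysosome, was higher, at 63.6 ± 4.44 FPKM beside 53.2 ± 2.73 (0.25, limma adjusted p = 0.00261). Bcl2, whose protein binds and restrains BECN1, was also higher, at 2.45 ± 0.256 FPKM beside 1.898 ± 0.142 (0.25, limma adjusted p = 0.00623). The more abundant Bcl2l1, from the same list, went the other way without passing, at 26.7 ± 3.01 FPKM beside 30.3 ± 1.93 (−0.18, limma adjusted p = 0.059). Of receptors of the endoplasmic reticulum, Rtn3 was at 164 ± 17.6 FPKM beside 191 ± 3.89 (−0.23, limma adjusted p = 0.0159) and Tex264 at 49.4 ± 2.92 beside 56.9 ± 1.00 (−0.20, limma adjusted p = 0.00175). In the list of further receptors, 5 of 17 tested genes fell, 3 rose and 9 did not pass. Of genes for fusion with the lysosome, Plekhm1 was at 15.7 ± 1.43 FPKM beside 20.1 ± 1.39 (−0.34, limma adjusted p = 0.0013) and Vps41 at 31.1 ± 1.62 beside 37.99 ± 0.842 (−0.28, limma adjusted p = 0.000123).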
